A study of Rattus norvegicus with 6 samples.

Results

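The NEDD4 family comprises the ubiquitin ligases that join a C2 domain, several WW domains and a catalytic HECT domain. Its genes were taken as the rows of the count table whose symbol was Itch, Wwp1, Wwp2, Nedd4, Nedd4l, Smurf1, Smurf2, Hecw1 or Hecw2. All 9 were found, each once, among 20609 genes. RNA-seq had been performed on PC12, a cell line from a rat pheochromocytoma, to detect changes in gene expression and alternative splicing upon PCBP-1 overexpression. The 3 control (Ctrl) libraries came from cells given a control plasmid, and the 3 PCBP1-OE libraries from cells given a plasmid for EGFP-tagged PCBP-1, with Lipofectamine-2000 as the transfection reagent. The study's abstract and introduction call the overexpression constitutive and stable, while its methods describe a transfection. The sources used here do not say whether the control plasmid carried EGFP. The methods state a harvest time after transfection for the RT-qPCR, which used leftover total RNA, and none separately for the sequencing. The Ctrl libraries held 20268725, 21256970 and 22315623 counts, and the PCBP1-OE libraries 21367196, 19822383 and 19730209. The study calls the replicates biological, but neither its methods nor the labels say that they were separate cultures, so p-values measure the spread between these samples, which may be technical.

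Ubiquitin passes from an E1 enzyme to an E2 enzyme and then to a ligase (E3). A HECT ligase takes the ubiquitin onto a cysteine of its own before it hands it to the substrate. In the NEDD4 family the WW domains bind PY motifs (short proline-rich stretches ending in tyrosine) in substrates or in adaptors, and intramolecular contacts keep several members inactive until an adaptor such as Ndfip1 binds. PCBP-1 and its paralog PCBP-2 are RNA-binding proteins with KH domains that are also known to bring Itch to MAVS, the mitochondrial adaptor of RNA sensing, which is then ubiquitinated and degraded. Wwp2 is among the genes whose splicing the study examined. Counts per gene sum all transcript forms, so a change in the ratio of forms is not seen in the values given here.

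The Wwp2 forms can be seen in the primers with which the study told them apart. Both forward primers, for the form labelled M (read here as the model transcript) and the alternatively spliced one (AS), end in the same 11 bases, shown in capitals. The stretches of 10 bases before these differ, though not at every position. They shared a reverse primer, shown in lower case.
Forward, alternatively spliced form: aaatgtggaaTCTTCGAGTGC
Forward, model form: cctctaccagTCTTCGAGTGC
Reverse, both forms: cccaagggatcatggtcag

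The PC12 label was checked against marker genes. Of 6 chromaffin markers, 5 were matched and 2 had enough counts for a test. Dbh, the enzyme that makes noradrenaline from dopamine, had 5, 1 and 4 counts in the Ctrl libraries and 1, 0 and 1 in the PCBP1-OE libraries. The granule protein gene Chga had 0, 0 and 2 counts against 0, 0 and 3, and Chgb had 0, 3 and 3 against 9, 0 and 1. These defining markers were thus at or near 0, against the label. Th, for tyrosine hydroxylase, was present at 7.95 ± 0.846 CPM (counts scaled to library size with TMM factors; SD, n = 3) in Ctrl and 7.73 ± 0.789 in PCBP1-OE. Snap25, a SNARE protein gene, was at 11.7 ± 0.352 and 11.1 ± 1.21 CPM. The summed level of the chromaffin markers was 19.2, 21.0 and 19.5 CPM in Ctrl and 19.4, 17.7 and 20.2 CPM in PCBP1-OE, with Snap25 as the most abundant.

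Markers of other cell types were not all absent. Of 6, 5 were matched and 4 had enough counts. Sox10, a transcription factor of Schwann cells and other glia, was at 399.7 ± 9.45 CPM in Ctrl and 367 ± 6.73 CPM in PCBP1-OE. S100b, a calcium-binding protein gene of the same cells, was at 233 ± 13.1 and 214 ± 4.28 CPM. Epcam, an epithelial adhesion gene, was at 55.8 ± 3.14 and 50.3 ± 2.77 CPM, and Col1a1, a fibroblast collagen gene, at 3.16 ± 0.269 and 3.38 ± 0.277 CPM. Ptprc, the leukocyte marker CD45, had at most 3 counts in any library. Summed, this list was at 669, 711 and 695 CPM in Ctrl and at 626, 647 and 634 CPM in PCBP1-OE, with Sox10 the most abundant, so all 3 PCBP1-OE libraries lay below all 3 Ctrl libraries. Gene by gene, this held for Sox10 alone among the 4 tested, and for 16.5% of all genes tested. None of the list's 4 tested genes passed an FDR of 0.05 by edgeR's quasi-likelihood test (3 had an unadjusted p below 0.05, all lower in PCBP1-OE). The part of this difference in the results that follow was not tested. In bulk RNA, fewer cells of a type and less RNA per cell cannot be told apart.

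Genes were compared between groups with edgeR's quasi-likelihood test, with p-values adjusted (FDR) by the Benjamini-Hochberg method over all 12624 genes that had enough counts, and a gene was called at an FDR of 0.05 or less. Over the whole table, 1193 genes (9.45%) were called. Of these, 562 (4.45%) were higher in PCBP1-OE and 631 (5.00%) lower; with upper-quartile scaling the split was 655 and 427. At least a 2-fold change was found for 24 called genes (0.190%). No gene of the table was matched to Pcbp1, so the overexpression itself was not checked here.

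Of the 9 NEDD4-family genes, 7 had enough counts, and Itch and Smurf2 were called, both higher in PCBP1-OE, by less than 2-fold. Wwp1, Wwp2, Nedd4, Nedd4l and Smurf1 were not called. Both scaling alternatives called the same number, 2 of 7, while omission of replicate 1 or 2 of either group left 0 called, and omission of PCBP1-OE replicate 3 left 1. The median log2 fold change of the 7 was -0.03, beside 0.0029 over all genes tested. In CPM, 2 of the 7 had all 3 PCBP1-OE libraries above all 3 controls, where 14.1% of all genes did so, and 0 of 7 had them all below, where 16.5% did. The share of family genes without overlap in either direction, 28.6%, lay near the 30.6% of all genes.

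Itch (ENSRNOG00000059043, chromosome 3), which ubiquitinates JunB, p63, Notch and MAVS, was low in counts, with 151, 161 and 233 in the Ctrl libraries and 341, 258 and 219 in the PCBP1-OE libraries. Scaled, these were 7.70, 7.71 and 10.4 CPM in Ctrl and 15.5, 12.8 and 11.2 CPM in PCBP1-OE. Ctrl replicate 3 was the highest control and PCBP1-OE replicate 3 the lowest of its group, and the groups did not overlap. Itch rose from a mean of 8.60 ± 1.55 CPM to 13.1 ± 2.17 CPM (SD, n = 3 each), a fold change of 1.53 (95% CI 1.22 to 1.91). The log2 fold change was 0.61 (standard error 0.15, edgeR adjusted p = 0.0280). The call was lost when Ctrl replicate 1 (edgeR adjusted p = 0.110) or Ctrl replicate 2 (0.146) was left out, and likewise for PCBP1-OE replicate 1 (0.141) and replicate 2 (0.0854) and with a replicate block (0.131), with a log2 fold change between 0.47 and 0.77 and an adjusted p between 1.0e-04 and 0.146 over the 14 alternatives.

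Smurf2 (ENSRNOG00000014623, chromosome 10), a ligase for SMADs and TGF-beta receptors that is brought to them by Smad7, was measured on many more counts, 1530 to 1916 per library. Its levels were 78.0, 78.8 and 80.1 CPM in Ctrl and 86.9, 92.6 and 87.8 CPM in PCBP1-OE. The groups did not overlap, and the 3 controls lay close together. The rise was small, from 79.0 ± 1.07 to 89.1 ± 3.06 CPM, or 1.13-fold (95% CI 1.05 to 1.21). The log2 fold change was 0.17 (standard error 0.05, edgeR adjusted p = 0.0348). The call was lost when Ctrl replicate 1 (edgeR adjusted p = 0.100) or Ctrl replicate 2 (0.132) was left out, and likewise for each PCBP1-OE library (0.0942, 0.138 and 0.0532 without replicates 1, 2 and 3) and with a replicate block (0.139), within a range of 0.0141 to 0.139 over all 14 alternatives. The log2 fold change of Smurf2 lay between 0.15 and 0.19 over the same alternatives.

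**Figure D1:**
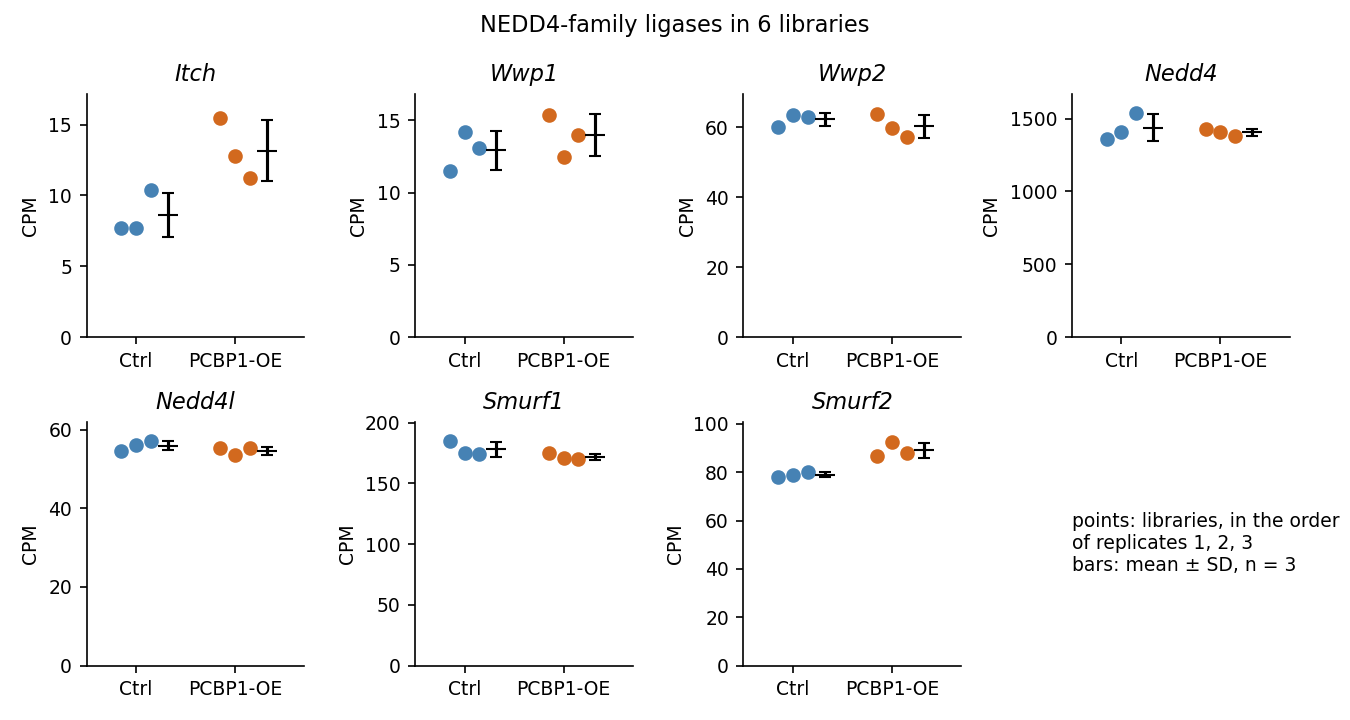
Expression (CPM, y axis from 0) of the 7 NEDD4-family genes with enough counts, 1 point per library and bars for mean ± SD (n = 3). All 3 PCBP1-OE libraries lie above all 3 controls for Itch (11.2 to 15.5 against 7.70 to 10.4 CPM) and Smurf2 (86.9 to 92.6 against 78.0 to 80.1 CPM), and the groups overlap for the other 5 genes.

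Wwp2 (ENSRNOG00000012937, chromosome 19), a ligase for the iron transporter DMT1, showed 60.1, 63.6 and 63.1 CPM in Ctrl and 63.7, 59.9 and 57.2 CPM in PCBP1-OE. The highest and the lowest of these 6 values both came from PCBP1-OE libraries, and the groups overlapped. Its mean was 62.3 ± 1.91 CPM in Ctrl and 60.3 ± 3.26 CPM in PCBP1-OE. The log2 fold change was -0.05 (95% CI -0.16 to 0.07, edgeR adjusted p = 0.612), and it was called in 0 of 14 alternatives. These are totals over the forms that the primers distinguish. Wwp1 (ENSRNOG00000006328, chromosome 5), a close relative of Wwp2 and Itch, showed 11.5, 14.2 and 13.1 CPM in Ctrl and 15.4, 12.5 and 14.0 CPM in PCBP1-OE, again with overlap. Its log2 fold change of 0.11 had a 95% CI of -0.13 to 0.36 (edgeR adjusted p = 0.551), so at this depth a change as large as 1.28-fold lies within the interval.

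Nedd4 (ENSRNOG00000058898, chromosome 8), the founding member, which sorts membrane proteins to lysosomes, held most of the family's counts. It showed 1360, 1409 and 1538 CPM in Ctrl and 1430, 1406 and 1382 CPM in PCBP1-OE. Ctrl replicate 3 was the highest of all 6 libraries. The fold change was 0.979 (95% CI 0.909 to 1.06, edgeR adjusted p = 0.737), and the sign of this uncalled difference turned without Ctrl replicate 3 (log2 fold change 0.02). Nedd4l (ENSRNOG00000017610, chromosome 18), which removes the epithelial sodium channel from the surface, was at 55.9 ± 1.25 CPM in Ctrl and 54.7 ± 0.998 CPM in PCBP1-OE (fold change 0.978, 95% CI 0.908 to 1.05, edgeR adjusted p = 0.710). Smurf1 (ENSRNOG00000000999, chromosome 12), a ligase for SMADs and RhoA, was at 178 ± 5.83 and 172 ± 2.71 CPM (fold change 0.966, 95% CI 0.905 to 1.03, edgeR adjusted p = 0.488). For these 3 genes the interval excludes a fold change as large as that fitted for Smurf2.

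The neuronal members were almost undetected. Hecw1 (ENSRNOG00000016046, chromosome 17) had 1, 2 and 0 counts in Ctrl and 1, 0 and 3 in PCBP1-OE. Hecw2 (ENSRNOG00000013257, chromosome 9) had 0, 1 and 0 counts in Ctrl and 1, 3 and 5 in PCBP1-OE. Neither was tested. A count of 0 allows a level of up to 0.134 to 0.153 CPM in a library (3 counts, counting error only).

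Ratios of counts within a library need no scaling between libraries. They were chosen after the values were seen and serve as descriptions. Itch made up 0.438, 0.427 and 0.537% of the family's counts in the Ctrl libraries and 0.840, 0.707 and 0.629% in the PCBP1-OE libraries. Per 100 counts of Wwp2 there were 12.8, 12.1 and 16.5 counts of Itch in Ctrl and 24.3, 21.3 and 19.6 in PCBP1-OE. Per 100 counts of Wwp1 the Itch values were 67.1, 54.4 and 79.5 against 101, 102 and 79.6, where Ctrl replicate 3 and PCBP1-OE replicate 3 all but met. Smurf2 stood at 42.2, 44.9 and 46.0 counts per 100 of Smurf1 in Ctrl and at 49.7, 54.3 and 51.6 in PCBP1-OE. Nedd4l per 100 counts of Nedd4 overlapped between groups, with means of 3.90 ± 0.168 and 3.89 ± 0.0946 (SD, n = 3), and Nedd4 held 78.3 ± 1.04% and 77.7 ± 0.0701% of the family's counts. Transcript lengths were not used here, so a ratio shows how a pair moved between libraries and not which gene had more transcripts.

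**Figure D2:**
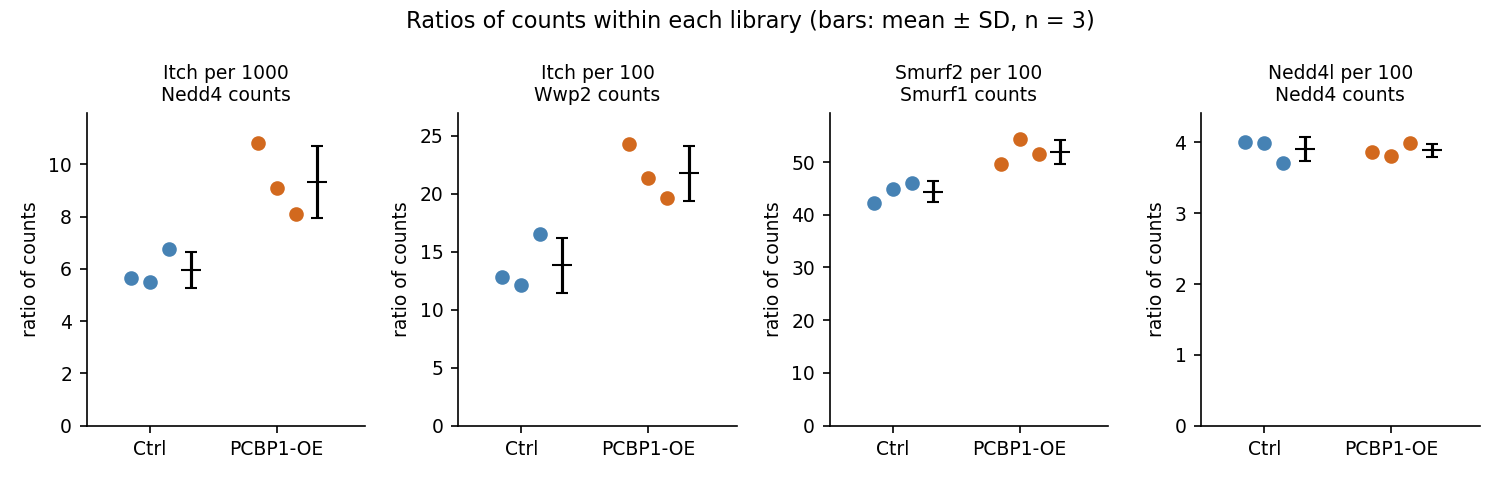
Ratios of counts between family members within each library (y axes from 0), 1 point per library and bars for mean ± SD (n = 3). Itch relative to Nedd4 (5.48 to 6.76 per 1000 in Ctrl, 8.09 to 10.8 in PCBP1-OE), Itch relative to Wwp2 and Smurf2 relative to Smurf1 do not overlap between groups, and Nedd4l relative to Nedd4 does.

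The genes whose log2 CPM followed Itch most closely over the 6 libraries were Prpf4b, a kinase of the spliceosome (Pearson r = 0.9970), Rab32, a small GTPase of lysosome-related organelles (r = 0.9960), and Plekho2 (r = 0.9954). All 3 were themselves called higher in PCBP1-OE (log2 fold changes 0.28, 0.21 and 0.52, edgeR adjusted p = 0.0255, 0.0455 and 0.0372). Each lost its call without Ctrl replicate 1 (edgeR adjusted p = 0.0913, 0.128 and 0.133 in this order), Ctrl replicate 2 (0.127, 0.168 and 0.170), PCBP1-OE replicate 1 (0.121, 0.184 and 0.165) and its replicate 2 (0.0754, 0.124 and 0.102), the libraries whose omission also ended the call of Itch. All 3 also lost it with a replicate block, and Rab32 with limma-voom, where its adjusted p lay just above the cutoff. The genes most like Wwp2 were Synj2, a phosphoinositide phosphatase (r = 0.9786), Ermard (r = 0.9768) and Exoc3l1 (r = 0.9759), none of which was called (edgeR adjusted p = 0.656, 0.454 and 0.650). The 6 points of each correlation share the libraries and their grouping, and the genes were picked as the highest of all those tested, so these values describe likeness only.

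The promoters of Itch and Smurf2 are shown since these members were called. Promoter sequences from RefSeq (GRCr8) were matched for 7 of the 9 members. Each is the 250 bases before the annotated start, 5′ to 3′ on the gene's strand. They lie at chr3:164105546-164105795 (plus strand) for Itch and at chr10:92361781-92362030 (minus strand) for Smurf2. Capitals mark the match to GCGCANGCG, part of the palindromic motif of the transcription factor NRF1.
Itch: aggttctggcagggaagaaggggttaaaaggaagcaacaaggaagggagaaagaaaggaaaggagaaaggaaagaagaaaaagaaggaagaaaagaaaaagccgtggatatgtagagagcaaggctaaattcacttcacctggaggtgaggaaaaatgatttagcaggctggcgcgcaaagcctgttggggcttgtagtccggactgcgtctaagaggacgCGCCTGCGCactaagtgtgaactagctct
Smurf2: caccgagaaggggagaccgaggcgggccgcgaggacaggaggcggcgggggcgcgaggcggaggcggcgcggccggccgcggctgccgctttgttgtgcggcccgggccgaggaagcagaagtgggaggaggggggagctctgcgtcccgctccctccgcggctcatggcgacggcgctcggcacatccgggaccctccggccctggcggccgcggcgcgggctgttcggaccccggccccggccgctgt

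Both strands of these windows were searched for 3 motifs, chosen after the expression values were seen, whose matches did not overlap in the windows shown. GCGCANGCG was found in Itch and Nedd4l, and in 5.09% of all 33469 promoters. The E-box CACGTG was found in Wwp2 alone among the 7 (5.59% of all), and the GC box CCGCCC in Nedd4 and Nedd4l (30.5% of all). None of the 3 was found in Smurf2. Their base composition differed as well, with 48% G and C in Itch and 79.2% in Smurf2, where the median of all promoters was 51.2%. Such matches describe letters in a window and not sites in use.

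Outside the NEDD4 family, several other HECT ligases were higher in PCBP1-OE. Of 19 listed, 18 were matched (all but Herc5) and tested, and 5 were called, Huwe1, Ube3a and Herc1 among them, all higher. This is 27.8% of the list, beside 28.6% (2 of 7) of the NEDD4 family and 9.45% of all genes called in either direction (4.45% higher). The log2 fold change was above 0 for 16 of the 18 (88.9%, beside 50.5% of all genes), with a median of 0.18. None was called lower by edgeR, DESeq2 or limma-voom, and 10 of the 18 had an unadjusted edgeR p below 0.05, all of them higher, where 3588 of all 12624 genes did, 1722 of them higher.

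Huwe1, a very large ligase for p53, Mcl-1 and Myc, showed 60.1, 52.7 and 56.5 CPM in Ctrl and 72.0, 83.5 and 65.7 CPM in PCBP1-OE (log2 fold change 0.39, standard error 0.08, edgeR adjusted p = 0.0143). Ube3a, the ligase lost in Angelman syndrome, showed 49.6, 48.8 and 43.2 CPM against 57.1, 58.3 and 60.4 CPM (0.31, standard error 0.06, edgeR adjusted p = 0.0125). The groups overlapped in neither gene, both picked by the same values. Over the list, 8 of the 18 tested were without overlap (44.4%, beside 30.6% of all genes). Herc1, a giant ligase with RCC1-like domains, rose by 1.16-fold (54.5 ± 2.24 to 63.0 ± 0.702 CPM, edgeR adjusted p = 0.0255). Trip12 and Ube3c, among the 3 genes with the largest CPM of the list, were not called, with fold changes of 1.10 (95% CI 1.03 to 1.18, edgeR adjusted p = 0.0726) and 1.06 (0.984 to 1.13, adjusted p = 0.295).

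The calls were lost on omission of any of several libraries, while over all 6 omissions the log2 fold changes were between 0.29 and 0.47 for Huwe1, 0.25 and 0.36 for Ube3a and 0.19 and 0.25 for Herc1. Over the whole table, the number of calls fell from 1193 to 48 without Ctrl replicate 2, to 169 without PCBP1-OE replicate 1 and to 136 without PCBP1-OE replicate 2. Without Ctrl replicate 2, the edgeR adjusted p was 0.0922 for Huwe1, 0.0586 for Ube3a and 0.109 for Herc1, and 0 of the 18 were called. Without PCBP1-OE replicate 2, it was 0.0620, 0.0551 and 0.0949 in the same order, again with 0 called. Without PCBP1-OE replicate 1, Huwe1 (0.0556) and Herc1 (0.0942) were lost, and 1 of the 18 was called. Without Ctrl replicate 1, 3 of the 18 were called. Without Ctrl replicate 3, 9 were called, Trip12 among them (0.0108). With a replicate block, all 3 were lost as well (0.107, 0.105 and 0.125). The highest adjusted p over the 14 alternatives was 0.107 for Huwe1, 0.105 for Ube3a, 0.125 for Herc1, 0.269 for Trip12 and 0.599 for Ube3c.

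**Figure D3:**
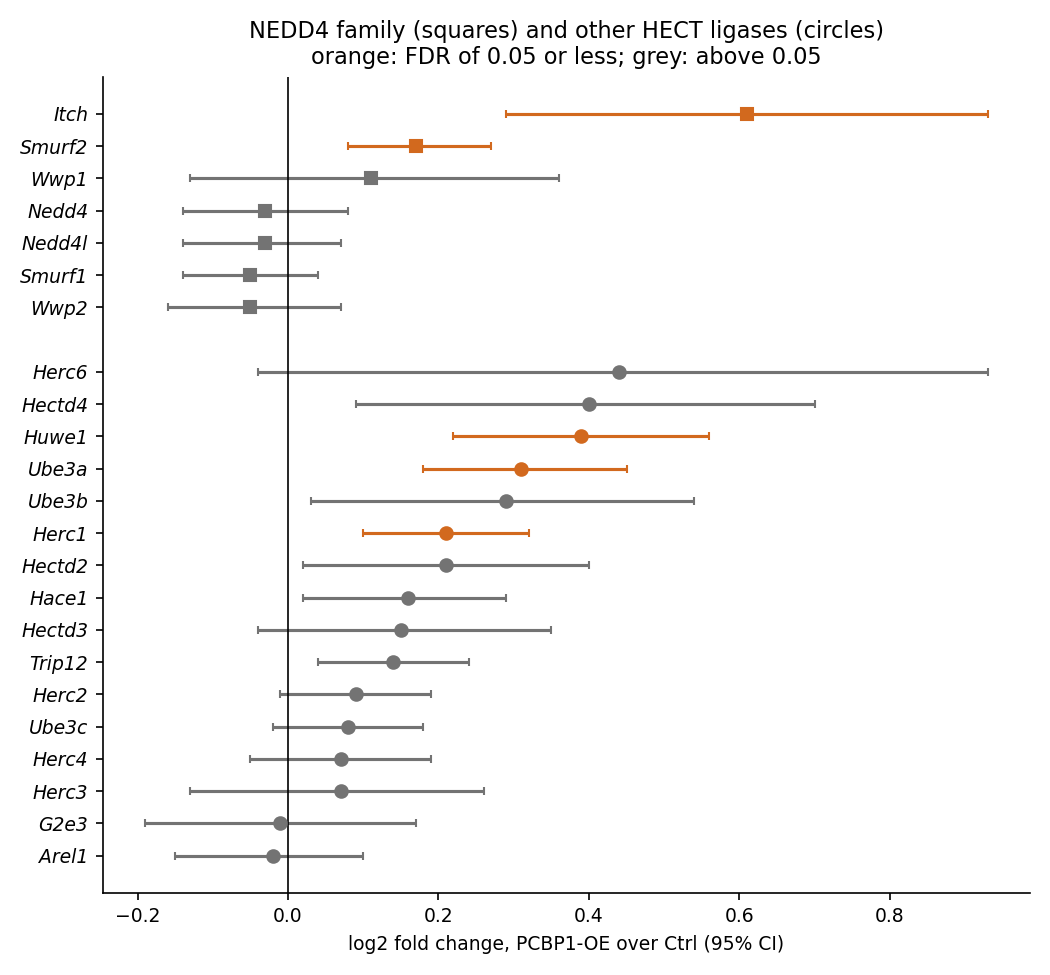
Log2 fold change of PCBP1-OE over Ctrl (x axis) with its 95% confidence interval for the 7 tested NEDD4-family genes (squares) and 16 of the 18 other HECT ligases (circles), orange where the FDR was 0.05 or less. Itch has the largest estimate among the NEDD4-family genes (0.61) and a wide interval (0.29 to 0.93), and 14 of the 16 other ligases shown lie above 0.

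Adaptors and regulators of the family were examined next. All 21 listed genes were matched, 18 were tested, and Txnip, Arrdc3 and Arrdc4 were called, all higher (16.7%, where 9.45% of all genes were called in either direction and 4.45% were called higher). The 3 encode alpha-arrestins, which as a class carry PY motifs and recruit NEDD4-family ligases to membrane cargo. The other alpha-arrestin genes of the list, Arrdc1 and Arrdc2, named after their values were seen, were not called and had fold changes below 1 (0.906, 95% CI 0.785 to 1.05, and 0.897, 95% CI 0.756 to 1.06, edgeR adjusted p = 0.358 and 0.394). Of the called genes, Txnip, which also binds thioredoxin and lowers glucose uptake, showed 99.7, 108 and 116 CPM in Ctrl and 157, 155 and 157 CPM in PCBP1-OE. It rose by 1.44-fold (95% CI 1.33 to 1.57, log2 fold change 0.53, standard error 0.05, edgeR adjusted p = 4.0e-04), and of the 16 called genes followed through the alternatives it alone was called under each of the 14 alternatives (adjusted p at most 0.0204). Arrdc3, an adaptor for beta-adrenergic receptors and integrin beta-4, showed 19.7, 19.6 and 24.3 CPM against 28.2, 28.5 and 29.7 CPM (log2 fold change 0.44, standard error 0.09, edgeR adjusted p = 0.0160). Arrdc4, a close relative of Txnip, showed 9.54, 9.20 and 11.7 CPM against 13.3, 15.4 and 14.1 CPM (0.49, standard error 0.12, edgeR adjusted p = 0.0263). In all 3 genes, picked by the same values, the groups did not overlap and Ctrl replicate 3 was the highest control. Over the list, 5 of the 18 tested were without overlap (27.8%, beside 30.6% of all genes).

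Arrdc3 and Arrdc4 lost their calls on omission of any of 4 and of 5 libraries, with log2 fold changes of 0.39 to 0.45 and of 0.43 to 0.54 in these omissions. The edgeR adjusted p of Arrdc3 was 0.0674 without Ctrl replicate 1, 0.0939 without Ctrl replicate 2, 0.0684 without PCBP1-OE replicate 1 and 0.0644 without PCBP1-OE replicate 2, with 0.0891 under a replicate block, and its range over the alternatives was 2.2e-05 to 0.0939. That of Arrdc4 was 0.0970, 0.135, 0.0750 and 0.113 in the same order and 0.0567 without PCBP1-OE replicate 3, with 0.120 under the block, within 0.00146 to 0.135. The activators Ndfip1 and Ndfip2, membrane adaptors that release Itch and Nedd4 from autoinhibition, were not called. Ndfip1 was at 327 ± 19.7 and 322 ± 23.7 CPM (log2 fold change -0.02, 95% CI -0.15 to 0.10, edgeR adjusted p = 0.838). Ndfip2 was at 95.5 ± 2.59 and 102 ± 3.57 CPM (0.09, 95% CI -0.01 to 0.19, edgeR adjusted p = 0.221). Of the most abundant in the list, Laptm4a, a lysosomal membrane protein that binds Nedd4, had a fold change of 0.973 (edgeR adjusted p = 0.581). Tax1bp1, which with Itch takes part in the A20 complex, had a fold change of 1.07 (edgeR adjusted p = 0.189, and 0.0238 without Ctrl replicate 3).

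The E1 and E2 enzymes upstream of the family are a short list. Of 11 listed, 10 were tested, and 0 were called by edgeR's quasi-likelihood or exact test, DESeq2 or limma-voom; the first of these called 9.45% of all genes, a share that comes to about 1 gene in 10. An unadjusted edgeR p below 0.05 was found for 2 of the 10, both higher, and for 3588 of all 12624 genes. Their median log2 fold change was -0.01. Uba1, the main E1, had a fold change of 0.971 (95% CI 0.914 to 1.03, edgeR adjusted p = 0.528). Ube2l3, a cysteine-specific E2 that serves HECT ligases, had 0.947 (0.884 to 1.01, edgeR adjusted p = 0.281). Ube2d3, an E2 of broad use, had 1.10 (1.02 to 1.18, edgeR adjusted p = 0.0886, and 0.0421 with no filter on low counts).

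**Figure D4:**
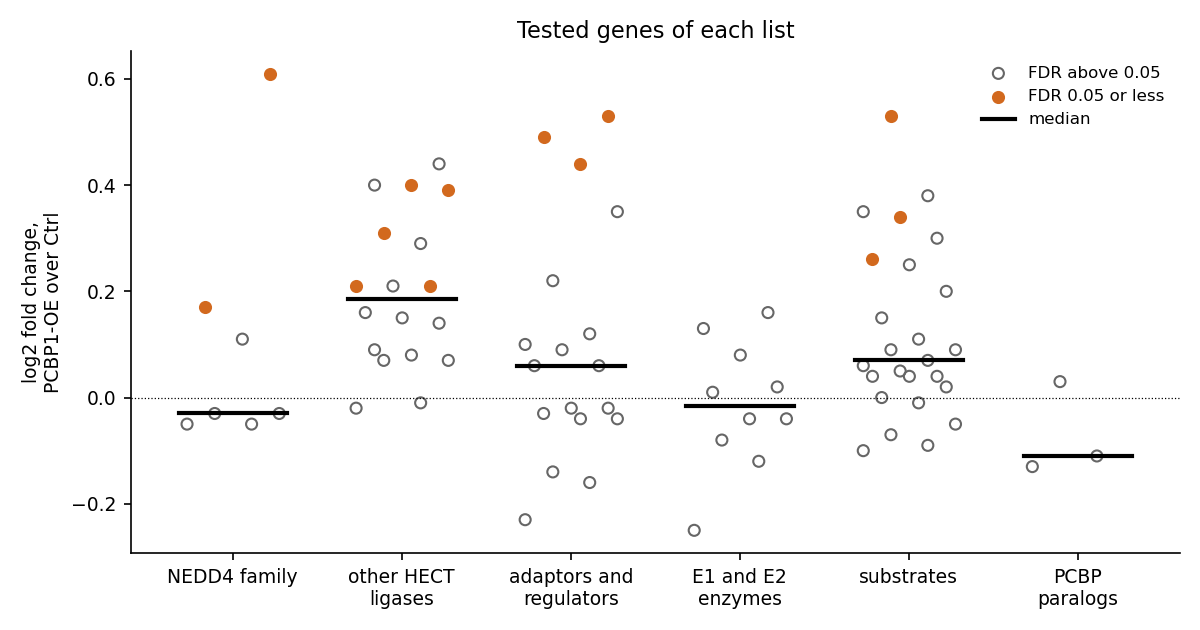
Log2 fold change of PCBP1-OE over Ctrl (y axis) for every tested gene of the NEDD4 family and its companion lists, filled where the FDR was 0.05 or less, with each list's median as a bar. The medians run from -0.11 for the PCBP paralogs to 0.18 for the other HECT ligases, and all filled points are above 0.

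Of 35 listed substrates, all but Ticam1 and Dvl2 were matched; Tgfbr1 stands in the table under a pair of identifiers, which makes 34 rows. Of these, 25 were tested and 3 were called, Junb, Lats1 and Map3k2, all higher (12.0%, where 9.45% of all genes were called in either direction and 4.45% were called higher), and the log2 fold change was above 0 for 20 of the 25 (80.0%, beside 50.5% of all genes). Junb, an AP-1 factor and a classical Itch substrate, showed 235, 217 and 223 CPM in Ctrl and 266, 273 and 269 CPM in PCBP1-OE (log2 fold change 0.26, standard error 0.04, edgeR adjusted p = 0.00862). Jun, its relative, differed by less than the spread between replicates, with 592 ± 6.48 and 593 ± 1.83 CPM (fold change 1.00, 95% CI 0.945 to 1.06, edgeR adjusted p = 0.963). Lats1, a Hippo-pathway kinase that Itch targets, showed 54.2, 50.8 and 59.4 CPM against 72.0, 66.1 and 69.9 CPM (0.34, standard error 0.06, edgeR adjusted p = 0.0102). Map3k2, the kinase MEKK2 and a Smurf1 substrate, showed 4.08, 3.50 and 3.61 CPM against 4.95, 5.60 and 5.67 CPM on 73 to 113 counts per library (0.53, standard error 0.15, edgeR adjusted p = 0.0455). The groups did not overlap in any of the called substrates, which were picked by the same values. Over the list, 6 of the 25 tested were without overlap (24.0%, beside 30.6% of all genes).

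Without Ctrl replicate 2, none of the called substrates passed (edgeR adjusted p = 0.0706 for Junb, 0.0666 for Lats1 and 0.174 for Map3k2). Lats1 was also lost without PCBP1-OE replicate 1 (0.0538), and Map3k2 without Ctrl replicate 1 (0.0918) or PCBP1-OE replicates 1 (0.118), 2 (0.142) or 3 (0.115) and under DESeq2 (adjusted p = 0.0597). All 3 were lost with a replicate block (0.0924, 0.0858 and 0.156). Over the alternatives the adjusted p reached 0.0924 for Junb, 0.0858 for Lats1 and 0.174 for Map3k2. Their log2 fold changes over the same alternatives were 0.24 to 0.30, 0.29 to 0.40 and 0.50 to 0.61 in this order. Mavs, the substrate to which PCBP proteins bring Itch, was not called. It showed 23.7, 22.5 and 23.5 CPM in Ctrl and 23.1, 21.8 and 27.6 CPM in PCBP1-OE, where replicate 3 stood above the rest (log2 fold change 0.05, 95% CI -0.15 to 0.25, edgeR adjusted p = 0.747, and -0.04 without PCBP1-OE replicate 3).

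Slc11a2, which encodes the iron transporter DMT1, had a fold change of 0.932 (95% CI 0.845 to 1.03, edgeR adjusted p = 0.330). Rhoa, a GTPase degraded through Smurf1, had one of 0.951 (0.891 to 1.01, edgeR adjusted p = 0.289).

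Among the PCBP paralogs, Pcbp2, Pcbp3 and Pcbp4 were tested and 0 were called by edgeR's quasi-likelihood or exact test, DESeq2 or limma-voom, with 1 (Pcbp4) at an unadjusted edgeR p below 0.05. Pcbp2, which like PCBP-1 links Itch to MAVS, was at 427 ± 14.4 CPM in Ctrl and 435 ± 9.67 CPM in PCBP1-OE (fold change 1.02, 95% CI 0.955 to 1.09, edgeR adjusted p = 0.730). Pcbp3 was at 12.7 ± 0.269 and 11.7 ± 0.519 CPM (0.924, 95% CI 0.798 to 1.07, edgeR adjusted p = 0.485). Pcbp4 was at 203 ± 7.76 and 185 ± 5.42 CPM (0.912, 95% CI 0.851 to 0.977, edgeR adjusted p = 0.0806, and 0.0189 without Ctrl replicate 3).

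**Figure D5:**
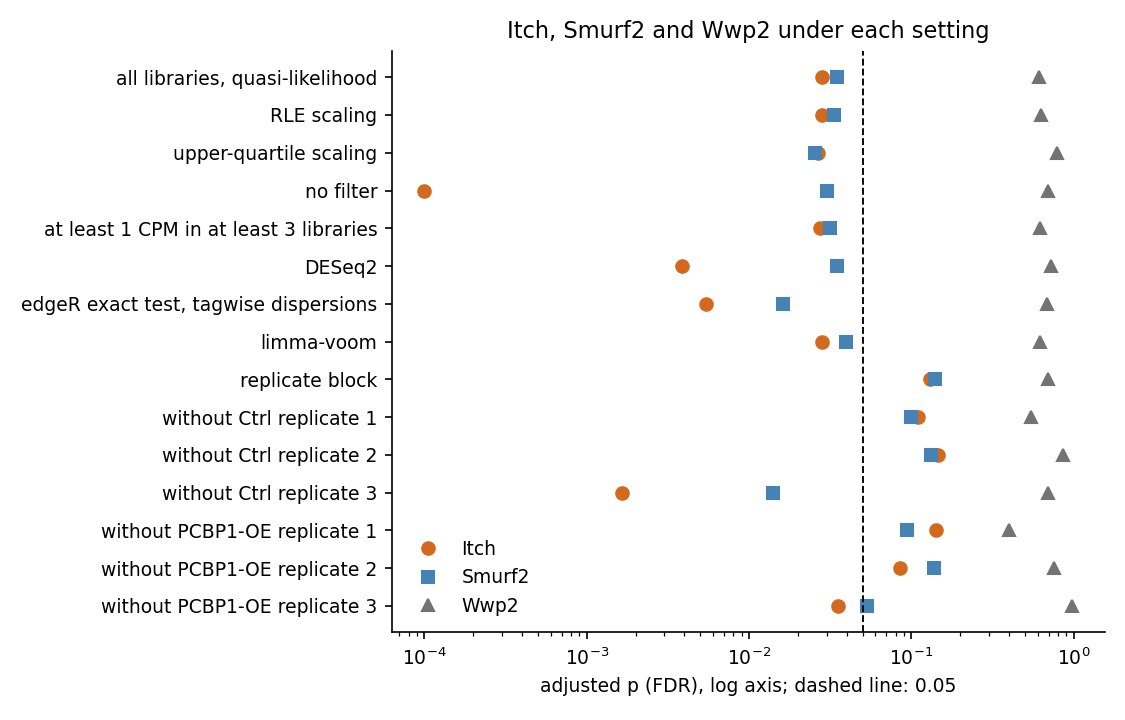
Adjusted p (x axis, log scale, dashed line at 0.05) of Itch, Smurf2 and Wwp2 with all libraries by edgeR's quasi-likelihood test (top) and under each of 14 alternatives (y axis). Itch lies left of the line in 9 alternatives and Smurf2 in 8, and Wwp2 in 0.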

How the data were processed

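Raw read counts for each gene of 6 libraries, as deposited, were used, and the labels gave the group of each library. Per the methods, poly-A RNA was sequenced from directional libraries, and reads were cleaned with FASTX-Toolkit and aligned with TopHat2 to the rat genome Rnor_6.0; the submitters' processing notes list a human build instead, while the gene identifiers are of the rat. Reads that mapped to 1 place were counted per gene. The counting program and its use of strand are not stated in those methods, so counts of overlapping or antisense genes are uncertain, and near-identical copies may be undercounted. Total counts of 19730209 to 22315623 set the depth.

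The whole table was fitted with the quasi-likelihood method of edgeR 4.0.16 under R 4.3.3, after TMM scaling. The filterByExpr function, set to a minimum count of 10 and a total of 15, passed 12624 genes and removed 7985. CPM values are scaled by TMM. Replicates differed by more than sampling noise (chi-square per gene of 4.87 to 16.9). The pipeline was tested on simulated data, and no value from that test is used here. The fit was repeated with upper-quartile or RLE scaling, without the filter or with a minimum of 1 CPM in 3 or more libraries, by limma-voom (limma 3.58.1), DESeq2 1.42.0 or the exact test of edgeR, with a replicate block, and with each library omitted in turn.

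The members and the companion lists were chosen with earlier results of these data known. Named genes are all members; of each list, every called gene and the 3 with the largest mean CPM; 8 genes fixed by name (Ndfip1, Ndfip2, Mavs, Pcbp2, Slc11a2 and others); and the 3 genes most correlated with Itch and with Wwp2 in log2 CPM (prior count 2). Genes singled out beside these were chosen after their values were seen. Some genes of the lists are counted but not reported by name here. Splicing counts were not analysed here.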

Additional observations from a re-analysis of the deposited data

How the results depend on the processing

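The number of calls moved most with the libraries used and with a replicate block. With 1 library left out, 48 to 2860 genes were called over the whole table (36 to 1395 higher, 12 to 1465 lower), and 5 to 83 with at least a 2-fold change. The highest of each count came without Ctrl replicate 3. The lowest came without Ctrl replicate 2, except for the 2-fold count, which was 6 there and 5 without PCBP1-OE replicate 2. In the same omissions 0 to 2 NEDD4-family genes were called, 0 to 9 other HECT ligases, 1 to 7 adaptors and regulators, 0 to 4 substrates and 0 to 1 PCBP paralogs. With no filter on low counts, 2090 genes were called (1079 higher, 1011 lower), 72 of them with at least a 2-fold change, and 1 E1 or E2 enzyme. The 2-fold count was 10 with DESeq2 and 49 with edgeR's exact test. The cause of these differences was not tested. The replicates carry the same numbers in both groups. The deviations of same-numbered libraries from their group means correlated at -0.078, -0.051 and -0.043, and 0 of the 6 libraries correlated best with the library of its own number. With so few libraries per group, these values cannot decide whether the numbers pair the samples. With the replicate block 16 genes were called (14 higher, 2 lower; 4 with at least a 2-fold change), 0 NEDD4-family genes, 0 other HECT ligases, 1 adaptor or regulator and 0 substrates; a block uses up degrees of freedom. Of the genes that the rule for named genes takes, 41 were fitted and 16 were called. Under the 14 alternatives 0 of the called genes changed sign, and 4 of the 25 that were not called did so in at least 1. Depth limits Hecw1 and Hecw2, which had too few counts for a test.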
